A study of Patiria miniata with 18 samples.

Results

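Proteins that leave the cell, or that sit in its membranes, are made at the endoplasmic reticulum and carried onward in vesicles. The genes of this route were followed here in larvae of the bat star Patiria miniata that were bisected and left to regenerate. Members were the loci named for the signal recognition particle (Srp), its receptor (Srpr), the translocon-associated protein complex (Ssr), Sec proteins, COPI coat subunits (Cop), Rab and Arf GTPases, TRAPP subunits (Trappc), Vps proteins and sorting nexins (Snx). The choice went by name among loci that passed an expression filter, and it was made with earlier results of these data known. It gave 243 loci with 113 distinct names among the 31798 expressed loci that carry the study's annotation, of which 14559 have a gene name. No locus was named Srpr.

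Larvae were bisected through the foregut at 7 days post fertilization, and anterior fragments, posterior fragments and uncut sibling controls were collected 3 hours post bisection (3 hpb, day 0 in the labels), after 3 days (3 dpb) and after 6 days (6 dpb). Each of the 9 groups has 2 polyadenylated RNA libraries, and each library was made from a pool of about 300 siblings kept at 16 °C and fed with algae. The larvae carry no transgene or mutation, and the only treatment is the cut. The uncut controls of a time point serve both the anterior and the posterior comparison, so these comparisons share samples.

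Library totals over loci ran from 15868104 to 36152675 counts (median 20631998). Scaling factors (TMM) ran from 0.677 to 1.22, and the factors under 0.9 belonged to both anterior libraries and 1 posterior library of 3 hpb. Levels are given as CPM, the locus counts as a rate of the scaled library total, and levels of different genes are compared only per kilobase of exon. The identity markers followed the fragment labels in part. The anterior receptor gene Frizz5/8 was higher in anterior fragments than in controls throughout (log2 fold changes 1.26, 1.70 and 1.61 in order of time), and 3 of 8 loci on the posterior list of Wnt8, Bra, Hox11/13a and Frizz9/10 were lower there at 3 hpb (1 Hox11/13a and 2 Frizz9/10 loci). Both Wnt8 loci had values above 0 (0.80 and 0.67) and did not pass the test. In bulk RNA, fewer cells of a type and less RNA per cell cannot be told apart.

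The signal recognition particle meets the new protein chain at the ribosome and brings it to the Sec61 channel of the endoplasmic reticulum, next to which the TRAP subunits (Ssr) sit. COPII coats form vesicles that leave the endoplasmic reticulum, and COPI coats, whose assembly is started by Arf GTPases, form vesicles within the Golgi and back from it. Tethers such as TRAPP, GARP and HOPS catch incoming vesicles, Rab GTPases mark the membranes to be joined, retromer and sorting nexins retrieve cargo from endosomes, and ESCRT complexes bud vesicles into the endosome. The same machinery delivers the membrane proteins that every cell needs.

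Levels spread widely over the members. The median member stood at 4.12 CPM per kilobase over all 18 libraries, and the range ran from 0.262 to 161. Translocon and TRAP loci were the highest group with a median of 58.9, led by an Ssr2 locus (XLOC_046730) at 161 CPM per kilobase. Ssr4 followed at 156 and Arf1 (XLOC_027385), which recruits COPI, at 129. The highest Rab locus was Rab10l (XLOC_015246) at 58.6. Tethers were low by comparison, with medians of 4.97 for TRAPP, 2.53 for GARP and 2.71 for the group of HOPS, CORVET and Sec1/Munc18 (SM) subunits, and the Vps13 lipid transfer proteins had a median of 2.00.

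Names and loci do not match one to one. Of the 243 loci, 210 share their name with another member, 29 overlap another expressed locus, and 29 have neither problem. Whether the counting used strand is not given in the sources used here, so reads of overlapping loci could not be assigned with certainty. For 79 names with 2 or more loci, the loci of 60 names had the same sign against controls in anterior fragments at 3 hpb, and the median spread between loci of a name was 0.219 on the log2 scale. In 9 names this spread was above 1.

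At 3 hpb the called falls in anterior fragments were 5 TRAPP loci, 2 Srp loci, 2 HOPS loci and single loci of Sec62, Sec22, Vps13c and Sec14l2, and the called rises were Sec24b, Vps37hb, a Rab10l locus and a Vps41h locus. By edgeR's quasi-likelihood test with Benjamini-Hochberg adjustment over all 31798 loci (threshold 0.05), 13 members fell and 4 rose in anterior fragments. Of the 13, Sec14l2 had no anterior library above the expression filter, so its call is a description. The 17 calls are 7.00% of the members, against 7.07% of all tested loci (4.76% lower and 2.31% higher), so the members' share was close to the background. With a replicate block set within each time point, which also lets the replicate difference vary with time, 44 members fell and 19 rose (25.9% of members against 26.9% of all loci), and all 17 calls were among them. The fit without any block left 2 calls, both lower. The median log2 fold change of the members was -0.11 and that of all tested loci was -0.01. The split between roles was wider than this median shows, as the plot of fold changes by role displays.

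**Figure D1:**
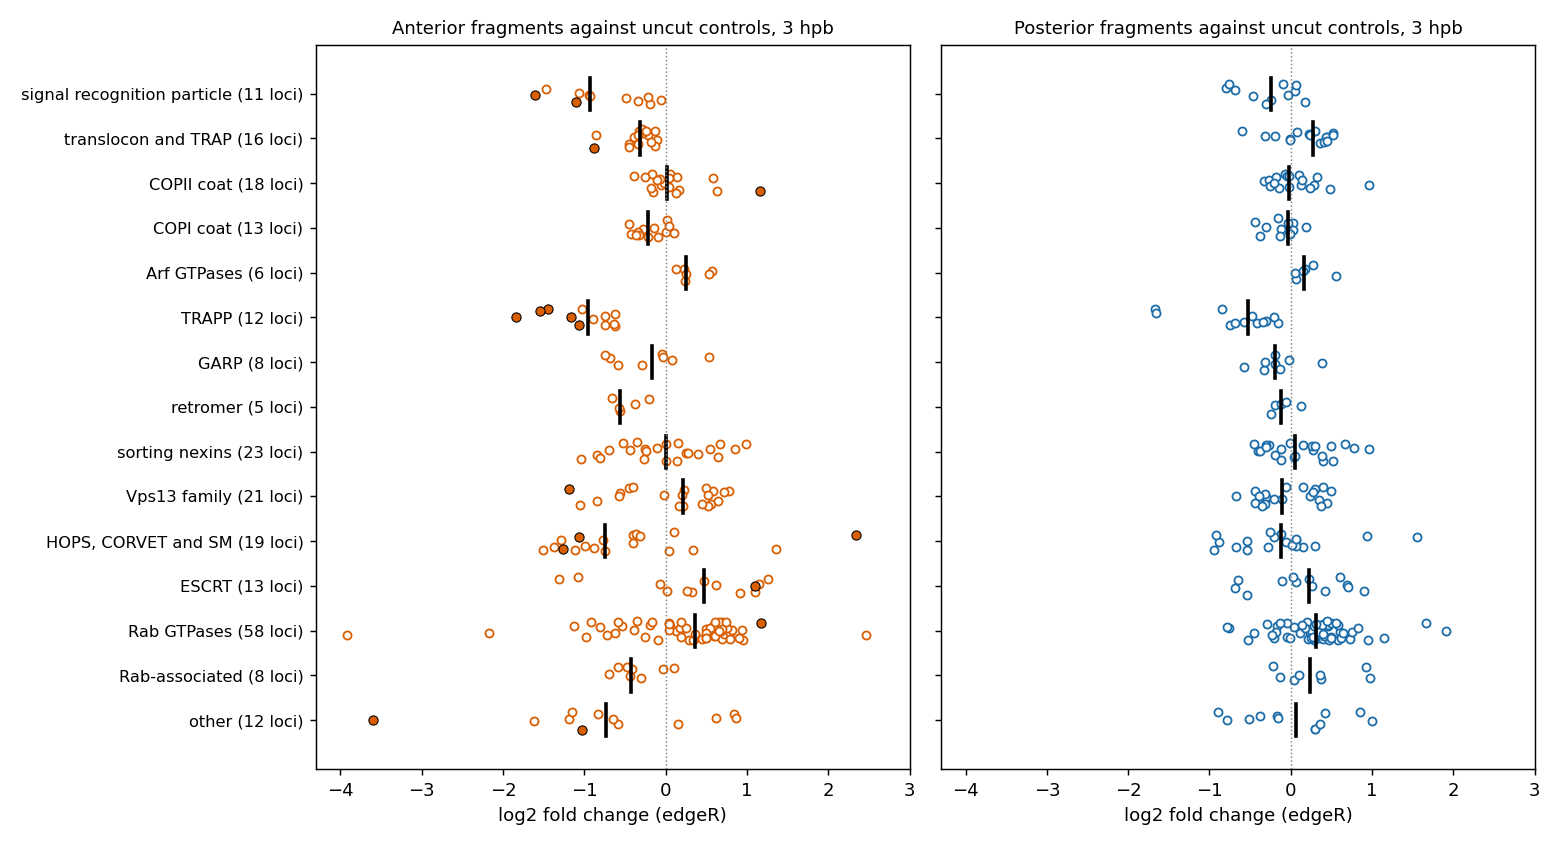
Log2 fold change of each of the 243 loci against uncut controls at 3 hpb (x axis), by role (rows), in anterior fragments (left) and posterior fragments (right). Filled points passed adjusted p under 0.05, open points did not, and black bars are medians. All 12 TRAPP loci lie below 0 in both panels, and all 16 translocon and TRAP loci lie below 0 on the left only.

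TRAPP, the tether that receives vesicles at the Golgi and activates Rab GTPases, was the group with the lowest median. All 12 TRAPP loci, from 7 names, were lower in anterior fragments than in controls in both replicates, with log2 fold changes from -0.63 to -1.84 and a median of -0.96. Of these, 5 fell by the test. The summed TRAPP level was 87.6 and 74.4 CPM in the anterior libraries, 136 and 99.5 CPM in the posterior libraries, and 181 and 144 CPM in the controls. Every fragment library was therefore below both controls, and the anterior libraries were below the posterior ones.

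Trappc4, a core subunit, gave the largest fall among the TRAPP loci. Its locus XLOC_022683 (scaffold 17462, positions 158 to 12417) stood at 8.98 and 6.94 CPM in controls, 3.07 and 1.58 CPM in anterior and 4.19 and 1.28 CPM in posterior fragments. Fragments and controls did not overlap, whereas the ranges of the 2 fragment types crossed. The anterior log2 fold change was -1.84 ± 0.34 (SE, n = 2 libraries a group, adjusted p = 0.00852 by edgeR). The other Trappc4 locus, XLOC_070402 (scaffold 7686, positions 9674 to 13656), fell by 1.55 ± 0.33 on the log2 scale, from 4.98 and 5.21 CPM to 1.60 and 1.88 CPM.

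Trappc6B had the highest level per length of the TRAPP genes, at 14.3 CPM per kilobase. It fell from 66.6 and 46.3 CPM to 28.9 and 24.8 CPM in anterior fragments (log2 fold change -1.06 ± 0.26, edgeR adjusted p = 0.0337). In posterior fragments it stood at 54.6 and 42.5 CPM, within the range of the controls at its upper end and just under it at its lower end. Trappc2 fell from 16.5 and 14.4 CPM to 7.99 and 4.07 CPM, and overlaps another expressed locus. One of 3 Trappc3 loci (XLOC_006258) fell from 12.3 and 6.70 CPM to 4.28 and 3.84 CPM. The other 7 loci (Trappc9, Trappc13, Trappc2L and the remaining Trappc3 loci) did not pass the test and had values from -0.63 to -1.03.

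The signal recognition particle showed the same direction. All 11 of its loci, from 5 names, had values below 0 in anterior fragments (median -0.93, from -0.06 to -1.61). Of these, 9 were below 0 in both replicates and 2 passed the test. Srp19, which helps the particle's RNA to assemble with its protein, fell by 1.61 ± 0.28 on the log2 scale at XLOC_076162 (scaffold 8995, positions 5509 to 30368, edgeR adjusted p = 0.00584). Its levels were 15.2 and 21.3 CPM in controls, 4.66 and 7.38 CPM in anterior fragments and 9.47 and 12.1 CPM in posterior fragments. The 3 groups formed separate steps without overlap. The second Srp19 locus, XLOC_014627, had -1.47 (adjusted p = 0.0647 by edgeR) and passed only with the block within each time point (edgeR adjusted p = 0.00254).

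Srp14, of the part of the particle that slows translation, fell from 32.6 and 24 CPM to 15.6 and 10.8 CPM (log2 fold change -1.11 ± 0.26, edgeR adjusted p = 0.0285). Both posterior libraries, at 18.8 and 15.9 CPM, were also below both controls. Srp68, a subunit that binds the RNA of the particle, had -1.06, -0.94 and -0.93 at its 3 loci, and the first and second of these passed only with the block within each time point. Srp54, the GTPase that binds the signal sequence, is the highest of the group per length at its locus XLOC_020413 (11.5 CPM per kilobase). That locus read 16.2 and 23.4 CPM in anterior fragments against 25 and 18.2 CPM in controls, and the groups overlapped.

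In the channel itself the difference from controls was smaller. All 16 translocon and TRAP loci, from 9 names, had values below 0 in anterior fragments, with a median of -0.31. Of these, 13 were lower in both replicates. Only a Sec62 locus (XLOC_020625), of the channel's partner for post-translational transport, fell by the test. It went from 29.5 and 30.8 CPM to 14.8 and 18.0 CPM (log2 fold change -0.88 ± 0.21, adjusted p = 0.0278 by edgeR). The other Sec62 locus had -0.86 and went from 24.5 and 19.1 CPM to 12.3 and 11.5 CPM. Both loci therefore separated the anterior libraries from the controls.

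The coats stood apart from these groups. None of 13 COPI loci and none of 6 Arf loci reached an unadjusted p under 0.05 in anterior fragments, and none was called by the other fit with the block within each time point. COPI values ran from -0.46 to 0.11 and Arf values from 0.13 to 0.57. The highest COPI locus per length, Copz1, read 6.52 and 5.12 CPM in anterior fragments against 9.47 and 6.27 CPM in controls. Arf1 (XLOC_027385) read 180 and 327 CPM against 240 and 200 CPM, so its replicates went opposite ways. Of 18 COPII loci 1 rose. Sec24b, the coat subunit that picks cargo, stood at 31.7 and 31.3 CPM in controls, 63.4 and 80.3 CPM in anterior fragments and 55.9 and 69.8 CPM in posterior fragments. Its anterior log2 fold change was 1.16 ± 0.28 (edgeR adjusted p = 0.0311), and all 4 fragment libraries were above both controls. Sec23a, the partner of Sec24 in the inner coat and the highest COPII gene per length, read 24.6 and 32.2 CPM against 28.3 and 23.3 CPM.

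Sec22, a SNARE that works between the endoplasmic reticulum and the Golgi, fell at XLOC_041144 from 11.5 and 9.55 CPM to 6.01 and 4.45 CPM in anterior fragments (log2 fold change -1.02 ± 0.22). Posterior fragments stood at 7.73 and 4.77 CPM, again under both controls, with -0.79 and an adjusted p of 0.237 by edgeR.

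On the way to the lysosome, the HOPS, CORVET and SM group was divided. HOPS and CORVET share a core of Vps11, Vps16, Vps18 and Vps33A and join late and early endosomes. Of the 19 loci 14 had values below 0, 2 fell and 1 rose, and the median was -0.75. Vps33A (XLOC_047644) fell from 6.70 and 6.51 CPM to 3.13 and 2.34 CPM (log2 fold change -1.26 ± 0.32, edgeR adjusted p = 0.0368). The 2 other Vps33A loci had -1.37 (adjusted p = 0.062 by edgeR) and a value near -1 (adjusted p = 0.147 by edgeR). Neither of these 2 had an anterior library above the expression filter. They entered through control and posterior libraries, so their values are a description and give the called locus no support. Vps16 (XLOC_061850) fell from 10.8 and 8.63 CPM to 7.35 and 2.71 CPM. Vps11 had -0.89 and -0.75 at its 2 loci. Vps18 did not follow, since its highest locus had -0.40 and a low, overlapping one 1.36.

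The rise in this group was a single-exon locus named Vps41h (XLOC_000765), after a HOPS subunit. It read 2.95 and 3.37 CPM in controls, 8.43 and 25.1 CPM in anterior fragments and 5.70 and 13.5 CPM in posterior fragments (anterior log2 fold change 2.34 ± 0.62, edgeR adjusted p = 0.0438). Both fragment types lay above both controls and overlapped each other, and the anterior replicates were far apart. The neighbouring longer Vps41h locus on the same scaffold, XLOC_000761, had 0.04, and the third Vps41h locus had -1.51, so no direction can be given for the gene.

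ESCRT values differed by subunit. Vps37, of the ESCRT-I complex, had values from 1.09 to 1.26 at 4 loci of 2 names. Vps37hb (XLOC_068033) rose from 12.8 and 10.8 CPM to 20.4 and 33 CPM (log2 fold change 1.09 ± 0.29, edgeR adjusted p = 0.0425), and the other 3 loci passed only with the block within each time point. The locus of Vps28, of the same complex, also carries the name of a kinase gene (CskaI). It read 92.9 and 99.8 CPM in anterior fragments against 62.2 and 39.2 CPM in controls and also passed only in that fit (edgeR adjusted p = 0.0101). Vps25, of ESCRT-II, went the other way, with -1.32 and -1.08 at its 2 loci, which passed only in the same fit. Vps4b, the ATPase that takes the complexes apart and the highest ESCRT gene per length, had 0.02 and -0.07. Vps36, also of ESCRT-II, had values from 0.268 to 0.615 at its 4 loci and passed in neither fit, so Vps25 was the only ESCRT-II name below 0.

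Among the 58 Rab GTPase loci, 42 had values above 0 in anterior fragments, and the median was 0.36. Only 24 of them were higher in both replicates, since the median was -0.05 in replicate 1 and 0.72 in replicate 2. The locus Rab10l XLOC_042817, named for a GTPase of exocytosis and endosomal recycling, rose from 74.7 and 53.9 CPM to 105 and 191 CPM (log2 fold change 1.17 ± 0.31, edgeR adjusted p = 0.0430). The most abundant Rab10l locus, XLOC_015246, read 289 and 584 CPM against 246 and 186 CPM and passed only with the block within each time point (edgeR adjusted p = 0.0443). In that fit Rab4 and Rab28 passed at both of their loci, with values of 0.79 and 0.80 for Rab4 and 0.72 and 0.82 for Rab28. Rab4 serves fast recycling from early endosomes. The GTPases of the main stations had smaller values. Rab1 of the early secretory route had values from 0.19 to 0.59, Rab5l of early endosomes 0.29 and 0.36, and Rab7 of late endosomes 0.12 and 0.19, and none of these passed in either fit.

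**Figure D2:**
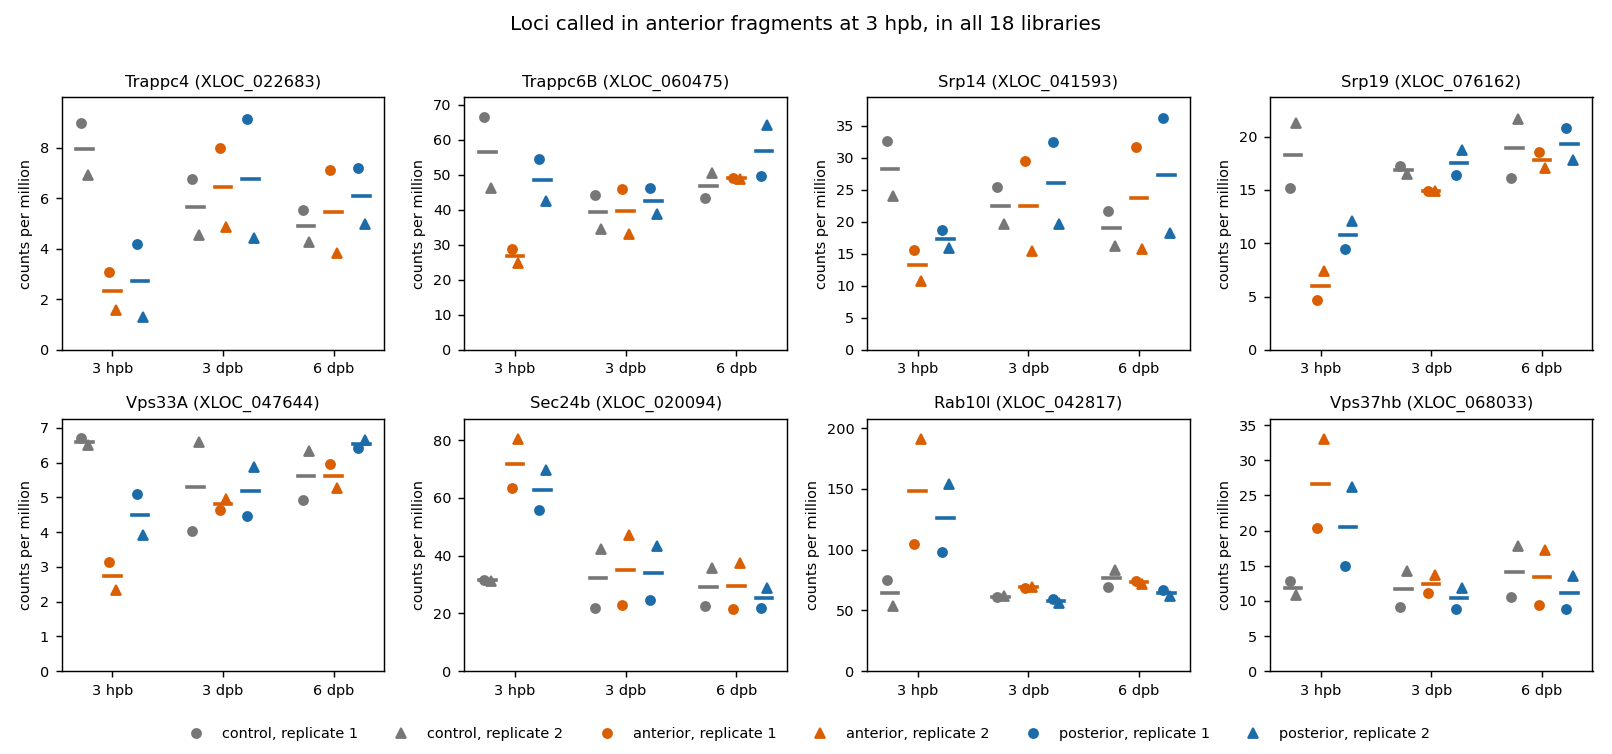
CPM in each of the 18 libraries (circles replicate 1, triangles replicate 2, bars group means) for 8 loci called in anterior fragments at 3 hpb, with time on the x axis. Trappc4, Trappc6B, Srp14, Srp19 and Vps33A are low in anterior fragments at 3 hpb, and Sec24b, Rab10l and Vps37hb are high. At 3 and 6 dpb none of these 8 loci was called.

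Retrieval genes were lower or mixed. The 5 retromer loci had values from -0.66 to -0.21, and 3 passed only with the block within each time point. Vps29h read 106 and 161 CPM against 175 and 214 CPM in controls. Sorting nexins ranged from -1.04 to 0.98 with a median of 0.00 and no call. Snx14 had its lowest value, -1.04, at XLOC_005353, and this locus passed only with the block within each time point (edgeR adjusted p = 0.0342). GARP, the tether for vesicles from endosomes to the Golgi, had no call and a median of -0.17, and its highest gene per length, Vps52L, read 6.13 and 8.29 CPM against 7.62 and 7.18 CPM. Of 21 Vps13 loci 1 fell, Vps13c at XLOC_038947, from 16.0 and 15.4 CPM to 5.17 and 8.89 CPM (log2 fold change -1.19 ± 0.31, edgeR adjusted p = 0.0406). The long Vps13c locus XLOC_066822 read 86.9 and 17.7 CPM against 33.5 and 24.2 CPM, higher in replicate 1 and lower in replicate 2. The Vps13 group as a whole had medians of 1.13 in replicate 1 and -0.75 in replicate 2, so the replicates disagreed on its direction.

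Groups therefore differed in how well the replicates repeated. In anterior fragments at 3 hpb, TRAPP had medians of -1.10 and -0.84 in replicates 1 and 2, the signal recognition particle -1.06 and -0.51, the HOPS group -0.53 and -0.97, retromer -0.58 and -0.41, and ESCRT 0.36 and 0.88. COPI had -0.53 and 0.25 and Arf -0.21 and 0.78. Over the whole set of members, 45 loci were higher and 101 lower in both replicates. The same count over all tested loci is not given here, so this balance cannot be called particular to the members. The rank correlation of a locus's fold change with its exonic length was 0.12 in replicate 1 and 0.00 in replicate 2 over the 243 members, and 0.04 and -0.01 over all loci. Without TMM scaling the median of all loci in this comparison was -0.44. Relative to that shift the TRAPP median of -1.39 and the signal recognition particle median of -1.32 were still low, and the Rab and ESCRT medians of -0.06 and 0.065 were still above it. The Rab median thus flips its sign against 0 under that scaling, with 30 of 58 loci below 0.

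Each of these calls depends on few libraries. Without control replicate 1 of 3 hpb there were 12 member calls (6 higher, 6 lower), without control replicate 2 there was 1, without anterior replicate 1 there were 7, and without anterior replicate 2 there were 5. None of the 17 loci was called in all 4 of these fits, while all 17 kept their direction in all 4. Where 1 library is left in a group, its spread is assumed to be that of the other groups. With the block within each time point the same omissions left 92, 35, 43 and 34 calls.

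A looser rule, an unadjusted p under 0.05 with more than 2-fold change, took 36 members in anterior fragments against controls at 3 hpb (17.4% of all loci), 3 on day 3 (4.8%) and 4 on day 6 (4.75%). In posterior fragments it took 5 (6.72%), 1 (1.79%) and 0 (5.4%) in order of time. Between the fragment types it took 9 (10.3%), 5 (7.62%) and 4 (10.8%). For the change from day 0 to day 6 it took 24 in anterior (8.52%) and 11 in posterior fragments (10%).

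Posterior fragments at 3 hpb had no called member, against 0.066% of all loci. At an unadjusted p under 0.05 there were 23 members (11.0% of all loci passed this), and with the block within each time point 3 were called, 1 higher and 2 lower, against 4.29% of all loci. DESeq2 likewise called 1 higher and 2 lower. The 3 loci with the block within each time point were both Trappc4 loci and Sec24b. Trappc4 had -1.67 ± 0.34 and -1.66 ± 0.33 (edgeR adjusted p = 0.118 for both in the main test, 0.0187 and 0.0186 with that block), and Sec24b had 0.96 ± 0.28 (adjusted p = 0.247 and 0.0220). The TRAPP loci were all below 0 here as well, with a median of -0.53, and 10 of 12 were lower in both replicates. The signal recognition particle had a median of -0.24 and 8 of 11 loci below 0.

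At 3 and 6 dpb nearly all of these differences were small. In anterior fragments 2 members fell and none rose at each time. Of all loci 2.26% were called at 3 dpb (2.24% lower) and 2.19% at 6 dpb (2.15% lower). With the block within each time point 3 members fell at each, against 3.93% and 3.75% of all loci. The 2 calls of the main test are Sec14l2 and a Rab11 locus, whose values are given with the comparison of the fragment types. Neither had an anterior library above the expression filter. They entered the test through the groups in which they were high, so these calls are a description. In posterior fragments no member was called at 3 dpb (0.0% of all loci) or at 6 dpb (0.00629%), with 3 members at an unadjusted p under 0.05 each time (2.77% and 9.09% of all loci). DESeq2 called none, and neither did the block within each time point (0.27% and 4.4% of all loci). TRAPP medians were -0.05 and -0.03 in anterior and 0.10 and 0.14 in posterior libraries. The signal recognition particle had -0.15 and -0.21 in anterior and 0.27 and 0.14 in posterior fragments.

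**Figure D3:**
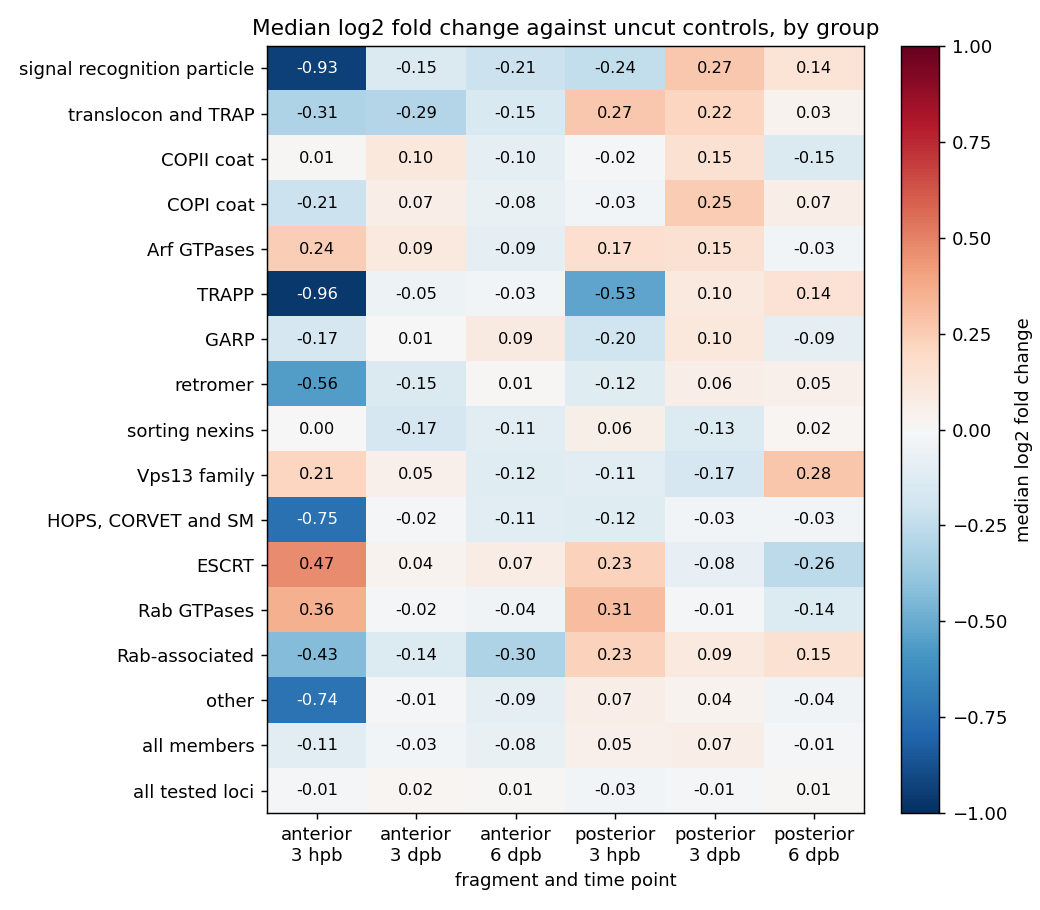
Median log2 fold change against uncut controls for each role (rows) in both fragment types at each time point (columns), with all members and all tested loci at the foot. The deep blue cells of the signal recognition particle (-0.93) and TRAPP (-0.96) are in the column of anterior fragments at 3 hpb.

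Whether the difference from controls changed between 3 hpb and 6 dpb was tested directly. No member was called in anterior fragments (0.0189% of all loci) or in posterior fragments (0.0% of all loci). At an unadjusted p under 0.05 there were 34 and 16 members (9.66% and 11.1% of all loci), and DESeq2 called 3 and 2. With the block within each time point, 6 members were called in anterior fragments (2.32% of all loci) and 5 in posterior fragments (5.37%). In anterior fragments these were Trappc4 (1.94), Vps25 (1.67), Srp19 (1.54), Srp14 (1.37) and Trappc6B (1.12), which gained relative to controls, and Sec24b (-1.15), which lost. In posterior fragments both Trappc4 loci gained, with 1.96 and 1.81, while Sec24b and both Vps37ha loci lost, with values from -1.14 to -1.36. All 12 TRAPP loci had a positive change in anterior fragments, with a median of 0.85. In Trappc4 (XLOC_022683) the anterior libraries went from 3.07 and 1.58 CPM at 3 hpb to 7.11 and 3.82 CPM at 6 dpb, while the controls went from 8.98 and 6.94 CPM to 5.54 and 4.29 CPM. The anterior values were higher and the control values lower at the later time.

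Direct comparison of the 2 fragment types separated other genes. Anterior fragments had 5 members lower than posterior fragments at 3 hpb and none higher (5.29% of all loci were called, 4.41% lower). There were 4 lower at 3 dpb (3.59%, 2.92% lower) and 3 lower at 6 dpb (4.33%, 2.73% lower). These counts include Rab22 and the Rab11 locus XLOC_052776 at each time, which passed the expression filter only with the help of posterior libraries. Sec14l2, also counted at each time, had no anterior library above the filter, so its calls are a description too. With the block within each time point 19 were lower on day 0 (12% of all loci), 6 on day 3 (7.43%) and 3 on day 6, when 2 were higher (12.9%).

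The TRAP complex had values below 0 in anterior against posterior fragments at all 6 Ssr loci and at each time, with medians of -0.68, -0.58 and -0.28 in order of time. None passed the main test. With the block within each time point Ssr2 (XLOC_046730), Ssr3 and Ssr4 passed at 3 hpb and Ssr3 at 3 dpb. Ssr3 read 63.9 and 41 CPM in anterior fragments, 109 and 79.3 CPM in posterior fragments and 89.5 and 46.9 CPM in controls at 3 hpb (anterior against posterior -0.87 ± 0.25, edgeR adjusted p = 0.0737, and 0.0242 with that block). Ssr4 read 318 and 381 CPM in anterior and 528 and 665 CPM in posterior fragments, and both controls, at 450 and 428 CPM, lay between them. Summed over the 6 loci, the level at 3 dpb was 1030 and 876 CPM in anterior, 1340 and 1210 CPM in control and 1420 and 1440 CPM in posterior libraries, with no overlap.

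Snx4, a sorting nexin of recycling and the highest of its group per length, was lower in anterior than in posterior fragments at 3 hpb by -0.82 ± 0.21 (edgeR adjusted p = 0.0479). It read 17.8 and 16.0 CPM in anterior fragments, 22.4 and 26.2 CPM in controls and 30.2 and 29.5 CPM in posterior fragments, 3 steps without overlap. At 3 dpb it read 19.7 and 21.4 CPM in anterior and 32.1 and 27.5 CPM in posterior fragments. Its call was lost when any 1 of the 4 libraries was left out, where the edgeR adjusted p reached 0.245.

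Rab-associated proteins had the same sign, with all 8 loci (4 names) below 0 in anterior against posterior fragments at 3 hpb and a median of -0.69. Rab6ip1l, named for a partner of Rab6, had 33.9 and 51.2 CPM in anterior, 47.7 and 37.5 CPM in control and 97.0 and 69.5 CPM in posterior fragments at its locus XLOC_072528. Anterior and posterior libraries did not overlap there, and at 3 dpb they read 40.7 and 36.9 CPM against 88.1 and 62.8 CPM. Neither Rab6ip1l locus was called. Rab3iL1, named for an exchange factor of the Rab3 family, had -1.07 at XLOC_063279 and passed only with the block within each time point (edgeR adjusted p = 0.0183).

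**Figure D4:**
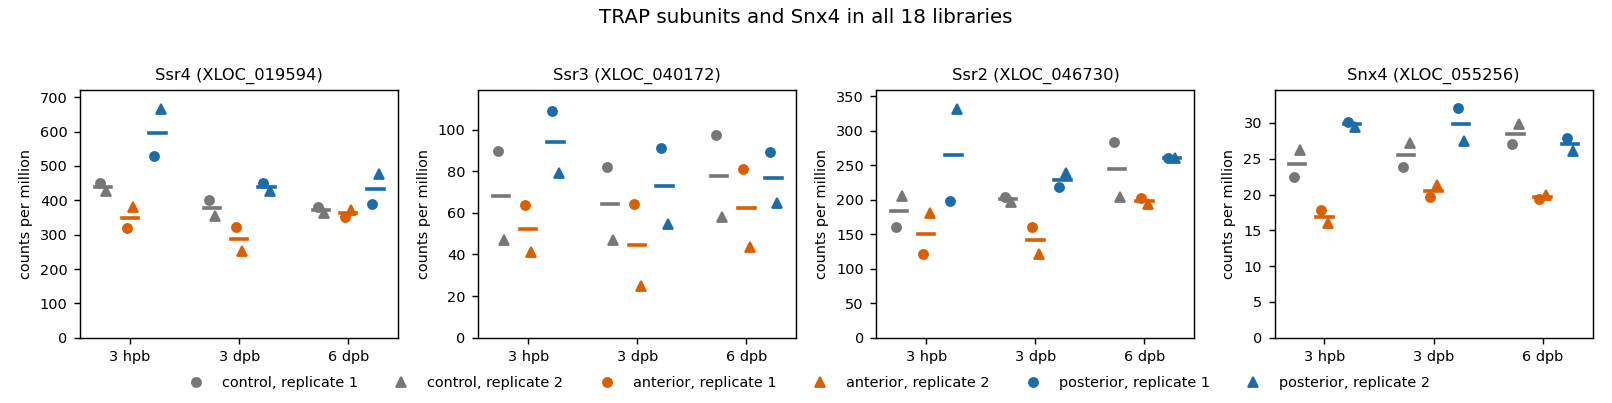
CPM in each of the 18 libraries (circles replicate 1, triangles replicate 2, bars group means) for Ssr4, Ssr3, Ssr2 and Snx4, with time on the x axis. Posterior libraries lie above anterior libraries of the same replicate number in each panel at 3 hpb and 3 dpb.

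Of the 243 members, 6 had no anterior library above the 3 CPM of the expression filter, which was set on unscaled totals. Rab22, Sec14l2 and a Rab11 locus among them were low in anterior fragments. The first is Rab22 (XLOC_020353, scaffold 16484, positions 1802 to 5095, alone in its name), named for a GTPase of endosomal recycling. Its raw counts in anterior fragments were 1 and 2 on day 0, then 1 and 0 on day 3, then 0 and 4 on day 6. Controls had 37 and 25, then 37 and 10, then 102 and 15 counts. Posterior fragments had 93 and 37, then 39 and 14, then 100 and 62 counts. No anterior library reached the lowest control or posterior library. With so few counts a ratio is loose, and the pooled, depth-corrected posterior level at 3 hpb was 38.0 times the anterior level, with a 95% counting interval from 12.7 to 187. Against controls the ratio was 16.2 with an interval from 5.28 to 80.5. The fitted log2 fold change of anterior against posterior fragments was -5.06 ± 1.12 on day 0, -5.41 on day 3 and -4.80 on day 6. Rab22 passed the expression filter through 2 posterior libraries alone, so these values are a description and its calls between the fragment types give no support. Against controls Rab22 did not pass the main test at any time (adjusted p = 0.0557, 0.0963 and 0.115 by edgeR) and passed at each with the block within each time point.

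The second is a Sec14l2 locus (XLOC_034305, scaffold 2465, positions 8861 to 17888), of a family of lipid-binding proteins related to yeast Sec14. Anterior fragments had 9 and 3 counts on day 0, then 1 and 1 on day 3, then 2 and 1 on day 6. Controls had 97 and 78, 116 and 50, and 84 and 6 counts, and posterior fragments had 208 and 88, 53 and 41, and 27 and 24 counts. The locus fell in anterior fragments at each time, with log2 fold changes of -3.60 ± 0.61, -5.86 ± 0.75 and -4.12 ± 0.72 (edgeR adjusted p = 0.00525, 0.000818 and 0.00758). It passed the expression filter through 3 control and 2 posterior libraries, the groups in which it was high, so these values and calls are a description. The counting ratio of control to anterior level was 68.2 on day 3 (95% interval 18.6 to 568) and 25.1 on day 6 (8.32 to 124). At 3 dpb the call held without each of the 4 libraries in turn, whereas on day 0 it was lost without anterior replicate 2 (adjusted p = 0.0513 by edgeR), and on day 6 it held only without control replicate 2.

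Levels of this RNA differed over time in the other groups as well. Posterior fragments had 9.80 and 7.50 CPM at 3 hpb, 2.24 and 2.62 CPM at 3 dpb and 0.805 and 1.01 CPM at 6 dpb, and controls went from 5.96 and 3.76 CPM to 1.94 and 0.396 CPM. This course over time was not tested.

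The third is a Rab11 locus (XLOC_052776, scaffold 48, positions 107229 to 122011), named for the GTPase of recycling endosomes. It overlaps a second Rab11 locus on the annotated other strand (XLOC_052785, positions 111091 to 122614). It fell in anterior fragments on day 3 (-5.07 ± 0.98, edgeR adjusted p = 0.0152) and on day 6 (-3.89 ± 0.90, adjusted p = 0.0483), from 44 and 45 counts to 0 and 2 and from 62 and 15 counts to 4 and 0. On day 0 it had 9 and 15 counts in anterior and 93 and 47 counts in control libraries (0.575 and 1.13 CPM against 5.72 and 2.27 CPM) and was not called (-2.17, edgeR adjusted p = 0.0942). Against posterior fragments its values were -3.83, -5.62 and -4.21 in order of time. It passed the expression filter through 2 posterior libraries and 1 control library. Its values and calls against controls and against posterior fragments are therefore a description. The day 3 call against controls was lost without control replicate 2 or anterior replicate 1 (adjusted p up to 0.199 by edgeR), and the day 6 call without any 1 of the 4 libraries (up to 0.304). The overlapping locus read 34.9 and 24.9 CPM in anterior against 27.2 and 11.3 CPM in control libraries at 3 hpb, and the third Rab11 locus, XLOC_052786, read 24.5 and 35.0 CPM against 17.6 and 18.4 CPM. Only 1 of the 3 Rab11 loci was therefore low in anterior fragments, and it is the lowest of all 243 members per length, at 0.262 CPM per kilobase.

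The 4 other Sec14L2 loci did not share 1 pattern. XLOC_072359 was lower in anterior than in posterior fragments on day 0 (-2.15 ± 0.43, edgeR adjusted p = 0.0104) and on day 3 (-1.73 ± 0.42, adjusted p = 0.0427). It read 2.30 and 2.64 CPM in anterior, 5.60 and 5.40 CPM in control and 7.91 and 13.6 CPM in posterior fragments at 3 hpb. These calls held only without posterior replicate 1 (day 0) and without posterior replicate 2 (day 3), with adjusted p up to 0.132 and 0.558 by edgeR otherwise. XLOC_048112 had -2.04 and -1.93, passed only with the block within each time point, and entered through 1 control and 1 posterior library. XLOC_020736 read 15.9 and 4.14 CPM in anterior and 9.28 and 4.86 CPM in posterior fragments on day 0 (0.32) and was not called. The highest Sec14L2 locus per length, XLOC_072402, read 6.20 and 6.18 CPM in anterior and 8.57 and 8.78 CPM in posterior fragments and was not called.

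**Figure D5:**
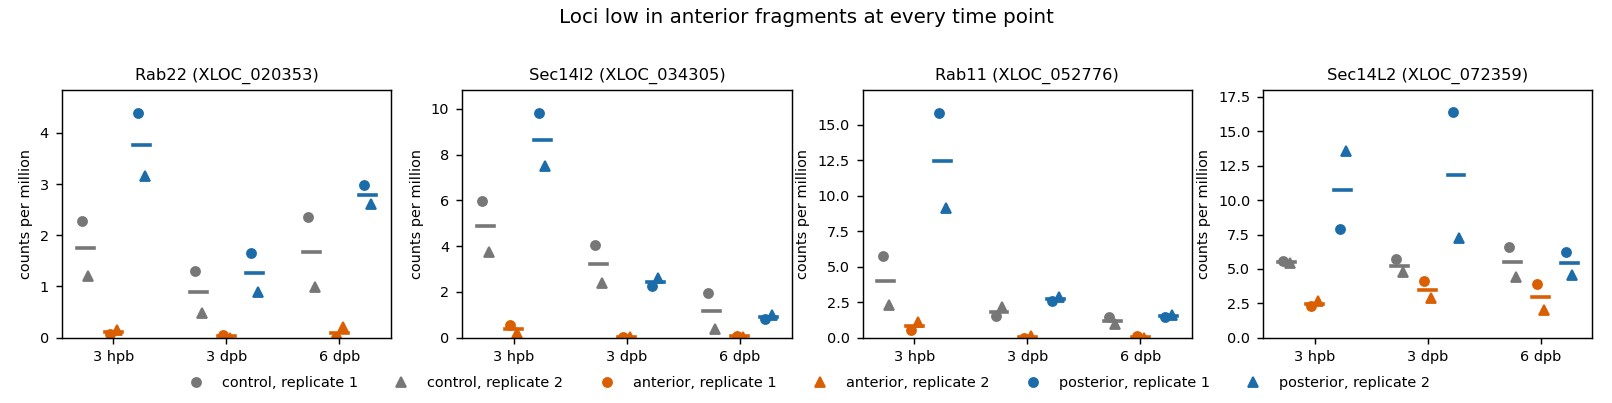
CPM in each of the 18 libraries (circles replicate 1, triangles replicate 2, bars group means) for Rab22, Sec14l2, the low Rab11 locus and Sec14L2 (XLOC_072359), with time on the x axis. Anterior libraries lie below both control libraries at every time point in each panel.

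Markers of other cell types moved between the fragments too. A list for digestive enzymes of the gut was taken by name alone (names starting with Amy, Pnlip, Cpa, Cpb, Try, Ctrb, Ctrl, Chym, Prss or Cela). Whether each of its loci is a digestive enzyme or is expressed in the gut was not tested. Of its 45 loci, 13 were called lower in anterior than in posterior fragments on day 0, 12 on day 3 and 12 on day 6, and none higher. Of all tested loci 4.41%, 2.92% and 2.73% were called lower at these times. Against controls a Prss12L locus (XLOC_000406) was called higher in anterior fragments at 3 hpb (1.355) and 6 dpb (1.567). Every other locus of the list called in anterior fragments against controls was lower. No summed ordering holds on day 0, when the levels were 5830 and 2320 CPM in anterior, 4430 and 2690 CPM in control and 5020 and 5420 CPM in posterior libraries. Their summed level at 3 dpb was 749 and 1840 CPM in anterior, 2300 and 3270 CPM in control and 2370 and 3860 CPM in posterior libraries, so the anterior libraries were the lowest. Of 64 loci for cilia (names starting with Dnah, Rsph or Ift, for dynein heavy chains, radial spokes and intraflagellar transport), 61 had values above 0 in anterior against posterior fragments at 3 hpb, with a median of 0.64, and 60 had values above 0 against controls. Their summed level at 3 hpb was 6180 and 6830 CPM in anterior, 2710 and 5410 CPM in control and 3430 and 4970 CPM in posterior libraries. The part of gut and ciliated cells in the member values was not tested.

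The rest of the pathway was read from a list of 200 other loci for signal peptidase and sugar transfer, SNAREs, adaptors, clathrin, Golgi tethers, exocyst, ESCRT-III and Rab regulators. In anterior fragments at 3 hpb 5 fell and 2 rose, with a median of -0.17, a smaller share than the 7.07% of all loci. The falls were 2 loci of Preb (-1.22 and -1.26), the exchange factor that starts COPII assembly, Ergic1 (-1.47), a protein that cycles between the endoplasmic reticulum and the Golgi, Cog4 (-1.28), a Golgi tether, and Rabif (-0.93), which binds Rab GTPases. The rises were SNAP25 (1.69), a SNARE of exocytosis, and Dennd4a (1.76), named for a Rab exchange factor. Of 37 loci for folding and quality control in the endoplasmic reticulum, 1 fell, Derl2 (-1.37), and none rose, again under that share. In anterior against posterior fragments at 3 hpb, Ddost (-0.80), of the enzyme that adds sugar chains beside the channel, and Pdia4 (-0.92), a disulfide isomerase, were lower. These were the only calls of the 200 and the 37 loci there, whereas 5.29% of all loci were called (4.41% lower).

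One locus separated the replicates instead of the groups. Rab31 XLOC_040179 had 0 counts in all 3 replicate 1 libraries of 3 hpb, and 13, 59 and 35 counts in control, anterior and posterior replicate 2. At 3 dpb the counts were 2, 0 and 3 in replicate 1 and 29, 34 and 55 in replicate 2, and at 6 dpb no library had more than 3. Its fitted fold change in anterior fragments at 3 hpb, 2.46 ± 1.46, rests on replicate 2 alone.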

How the data were processed

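RNA-seq was read from 18 libraries in 9 groups of 2. Per the labels and the submitters' processing notes, the authors called bases with CASAVA 1.8, trimmed with Trimmomatic, aligned to the P. miniata v1.0 assembly with TopHat2 2.0.12 and SAMtools, merged transcripts with Cufflinks 2.2.1 and made the deposited read counts per locus with HTSeq 0.6.1p1. Reads on no locus (2.37 to 3.65%) or several loci (6.12 to 8.74%) were left out. The authors' deposited table of log2 fold changes (from edgeR 3.10.5) was used for gene names only, and their deposited exon coordinates for position and length.

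Loci above 3 CPM in at least 2 libraries (31798) were fitted in 1 edgeR 4.0.16 quasi-likelihood model (R 4.3.3) with 9 groups, the replicate number as a block and TMM scaling, and p-values were Benjamini-Hochberg adjusted over all 31798 loci. Standard errors follow from the test's F statistic, and levels are CPM. Replicate numbers pair the samples in the data: deviations correlated at 0.742 to 0.916 between groups of a time point and at 0.179 to 0.675 between time points. The common dispersion was 0.146 with this block and 0.0475 with a block within each time point (8 and 6 residual degrees of freedom). Nothing says beyond the pools what separates replicates, so p-values measure the spread between these samples. Alternatives were DESeq2 1.42.0, other scaling, filters and blocks, the rule of unadjusted p under 0.05 with more than 2-fold change, a fit per time point and leaving out each library. The scripts were tested on simulated data.

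The members and lists were chosen with earlier results of these data known. Loci named by rule were the 6 largest rises and falls among calls against controls and the 4 largest between fragments. In each role the rule took the highest per kilobase and the largest change at unadjusted p under 0.05. It also took other loci of those names. Further loci were named outside this rule, such as Srp14, Srp68, Rab4, Rab28, Ssr3 and Ssr4. Rab7l1 and Rab33l2 were placed with the Rab GTPases. Counting intervals (95%) cover counting error only. Intervals came from scipy 1.17.1, plots from matplotlib 3.10.9, and tables from pandas 2.3.3 with numpy 2.4.6, all under Python 3.11.15.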

Additional observations from a re-analysis of the deposited data

Results flagged for a closer look

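Of the members, 5 had a difference from controls that itself differed between the fragment types, as the edgeR test between both fragment types at one time measures, because the shared controls drop out. For Rab22 (XLOC_020353) the log2 difference of anterior from posterior fragments was -5.06 on day 0 (3 hpb), -5.41 on day 3 and -4.80 on day 6. For Sec14l2 (XLOC_034305) it was -4.45, -5.53 and -3.87 at the same times. For the Rab11 locus XLOC_052776 it was -3.83, -5.62 and -4.21. For Sec14L2 (XLOC_072359) it was -2.15 at 3 hpb and -1.73 at 3 dpb, and for Snx4 (XLOC_055256) it was -0.82 at 3 hpb. Rab22 and the Rab11 locus passed the expression filter only with the help of posterior libraries, the group in which they were high, so their values are a description. Sec14l2 passed it through control and posterior libraries and no anterior library, so its values are a description too. Some digestive enzyme markers were lower in anterior fragments in the same comparison, and their part in these values was not tested.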

How the results depend on the processing

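Counts of called members depended on the fit, and the cause was not tested. In anterior fragments against controls at 3 hpb the 17 calls became 63 when the replicate block was set within each time point, 2 with no replicate block, 39 with DESeq2, 46 with library size alone, 5 with no filter, 11 with a 1 CPM filter, 36 with the rule of unadjusted p and 2-fold change and 38 with that rule and the block within each time point. At 3 dpb no such alternative moved the 2 calls by over 1.5 times, and at 6 dpb the 2 calls became 1 with no block, DESeq2 size factors, no filter or the 1 CPM filter, 0 with a fit per time point and 4 with the 2-fold rule under either block. In posterior fragments the 0 calls at 3 hpb became 3 with DESeq2 or the block within each time point and 5 with the 2-fold rule, and at 3 dpb 1 or 2 with that rule. Between fragments the 5 calls at 3 hpb became 3 with no block, 19 with the block within each time point, 13 with DESeq2 and 9 with the 2-fold rule, the 4 calls at 3 dpb became 2 with no block and 13 with a fit per time point, and the 3 calls at 6 dpb became 1 with no block, 5 with the block within each time point and 6 with the 2-fold rule in that block. The change from 3 hpb to 6 dpb had 0 calls in the main test, and in anterior and posterior fragments 6 and 5 with the block within each time point, 3 and 2 with DESeq2, 24 and 11 with the 2-fold rule and 31 and 16 with that rule in that block. Leaving out each library gave 1 to 12 calls in anterior fragments at 3 hpb (34, 35, 43 and 92 with the block within each time point), 0 to 2 at 3 dpb (1 to 2) and 0 to 1 at 6 dpb (0 to 3), 0 in posterior fragments (0 to 38, 0 and 0 to 1), 2 to 3, 1 to 3 and 0 to 2 between fragments (5 to 17, 2 to 4 and 2 to 5) and 0 for the changes (0 to 47 anterior, 0 to 42 posterior). The direction check covered the calls named by rule and the largest change of each role, each in its own comparison. None of these reversed its direction under the alternatives checked. The other loci named in the text were not checked for this. Depth limits Rab22, Sec14l2 and Rab11, with 0 to 15 counts in anterior libraries.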
